A study of Mus musculus with 72 samples.

Results

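The genes described here encode 7 proteins of the red cell membrane: band 3 (Slc4a1), ankyrin 1 (Ank1), protein 4.2 (Epb42), beta-spectrin (Sptb), beta-adducin (Add2), stomatin (Stom) and the erythroid membrane-associated protein Ermap. They were chosen as membrane skeleton and surface components, with earlier results of these data known. All 7 were among the 12589 genes tested, of 18194 genes with a probe set assigned to exactly 1 symbol. Gene expression had been measured with 72 Affymetrix arrays of whole blood from female Balb/c mice, 9 weeks old at the start, drawn by submandibular bleed. The mice drank water with lead (Pb, as lead acetate trihydrate) at 0 µg/mL in the control group, 5 µg/mL in the low-dose group and 50 µg/mL in the high-dose group for 2 weeks, and then plain water for 2 more weeks. Blood taken at the end of exposure gave 7 control, 15 low-dose and 15 high-dose arrays, and blood taken after recovery gave 7 control, 15 low-dose and 13 high-dose arrays. By the labels the groups differed only in lead and in collection, and globin transcripts were depleted from the RNA of every group.

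In the mature red cell a hexagonal network of spectrin tetramers lies beneath the lipid bilayer and gives the cell its elasticity. Ankyrin 1, with protein 4.2, ties that network to band 3, the chloride and bicarbonate exchanger, while adducin caps the actin filaments at the network's junctions and forms a further link to band 3. Stomatin is a raft-associated integral protein, Ermap carries the Scianna blood group antigens, and inherited defects of band 3, ankyrin 1, protein 4.2 or spectrin cause spherocytosis or elliptocytosis. Circulating mature red cells no longer transcribe these genes. Among red cells in blood the transcripts are therefore found mainly in reticulocytes, the young red cells newly released from the marrow. Lead is known for inhibiting haem synthesis and shortening red cell survival.

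The probe sets used were 1416464_at for Slc4a1, 1419421_at for Ank1, 1417338_at for Epb42, 1450556_at for Sptb, 1435287_at for Add2, 1438910_a_at for Stom and 1418909_at for Ermap. All values below are log2 signals or log2 differences, so a difference of 1 is a doubling. Among tested genes ranked by mean signal, the members lay between percentile 55.6 (Epb42) and percentile 99.3 (Slc4a1), but signals of different probe sets are not comparable as amounts of transcript.

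RefSeq promoter sequence (GRCm38.p6) was available for 5 of the members, Epb42, Sptb, Add2, Stom and Ermap. The 250 bases before the start are shown for Epb42 and Ermap, which fell after recovery at all 3 doses, and for Stom, which was called in 2 comparisons between doses. Each runs 5′ to 3′ on the gene's strand. The Ermap gene is annotated up to position 119190013, so the last bases of its window lie inside the annotated gene. Capitals mark letters of the GATA factor core (AGATAA or AGATAG or TGATAA or TGATAG) or of a CACCC-type box (CCNCNCCC), on either strand.
Epb42 (chr2:121036878-121037127, minus strand): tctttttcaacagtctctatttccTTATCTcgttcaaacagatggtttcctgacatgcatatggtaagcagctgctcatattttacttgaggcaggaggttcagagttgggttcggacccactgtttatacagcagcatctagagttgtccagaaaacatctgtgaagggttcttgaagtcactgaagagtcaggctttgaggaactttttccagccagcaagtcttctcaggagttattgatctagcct
Ermap (chr4:119189996-119190245, minus strand): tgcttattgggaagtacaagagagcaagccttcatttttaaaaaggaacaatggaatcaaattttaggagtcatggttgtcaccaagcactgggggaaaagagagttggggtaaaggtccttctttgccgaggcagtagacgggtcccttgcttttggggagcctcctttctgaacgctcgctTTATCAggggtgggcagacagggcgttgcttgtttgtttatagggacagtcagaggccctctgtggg
Stom (chr2:35337010-35337259, minus strand): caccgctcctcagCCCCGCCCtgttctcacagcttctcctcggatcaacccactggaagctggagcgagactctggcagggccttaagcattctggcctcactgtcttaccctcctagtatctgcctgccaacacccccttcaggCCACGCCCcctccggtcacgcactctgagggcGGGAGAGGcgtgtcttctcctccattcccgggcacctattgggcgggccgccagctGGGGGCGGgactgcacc
The GATA letters occurred in 3 of the 5 members' windows, those of Epb42 (first base at -226 from the start), Ermap (-67) and Add2 (-234), and in 26.5% of all 32851 promoters of the same length. The CACCC-type letters occurred in Stom (4 matches), Sptb (3) and Add2 (2), and in 45.9% of all promoters. In Sptb and Add2, 2 of the CACCC-type matches overlap each other, and no GATA match overlaps a CACCC-type match. A match describes only the letters in the window.

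Most listed markers of the cell types that whole blood should hold passed the filter on low signal where the array had a probe set for them. These were all 17 neutrophil, 18 B cell and 17 T cell markers, 23 of 24 platelet and megakaryocyte markers, and all 34 other erythroid and reticulocyte genes. Of 16 markers of facial skin, muscle and salivary gland on the array, 8 passed. The filter is a low bar: 12589 of 18194 genes passed, and the neutrophil genes Mpo (mean 3.93) and Elane (3.95) passed with means below its level of 4.14. Array medians lay between 4.05 and 4.22, which the deposited normalization sets, and no 2 arrays held identical values. Relative log expression, the spread of an array's genes around their medians, was wide in 4 arrays: high-dose exposure replicates 6 and 13, low-dose recovery replicate 4 and high-dose recovery replicate 12. The exposed mice were bled at both collections, but the labels do not say which arrays share an animal. The fit therefore treats arrays as independent, and its p-values rest on the spread between arrays. The spread of changes within an animal could not be estimated, so p-values of recovery against exposure may be too large or too small.

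The first comparison asks how the blood at the end of recovery differed from that at the end of exposure, within each dose. All 7 membrane genes had lower means after recovery at every dose. Lower means were found for 51.7% of all genes in control, 50.7% in low-dose and 50.8% in high-dose mice. The fall passed the test for 3 of 7 members in control mice (36.1% of all genes were called, 13.6% as lower), for 6 of 7 in low-dose mice (44.1% and 17.9%) and for 5 of 7 in high-dose mice (49.2% and 19.8%). The median difference of the members was -0.39 in control, -0.67 in low-dose and -0.42 in high-dose mice, whereas the median of all tested genes was -0.012, -0.0040 and -0.0046. The 3 comparisons use different arrays on both sides. In control mice, which never drank lead, the genes called were Epb42, Stom and Ermap. In whole blood, fewer reticulocytes, less transcript per reticulocyte and changes in other blood cells cannot be told apart. The collection's age, earlier bleeding and day cannot be told apart from recovery.

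**Figure D1:**
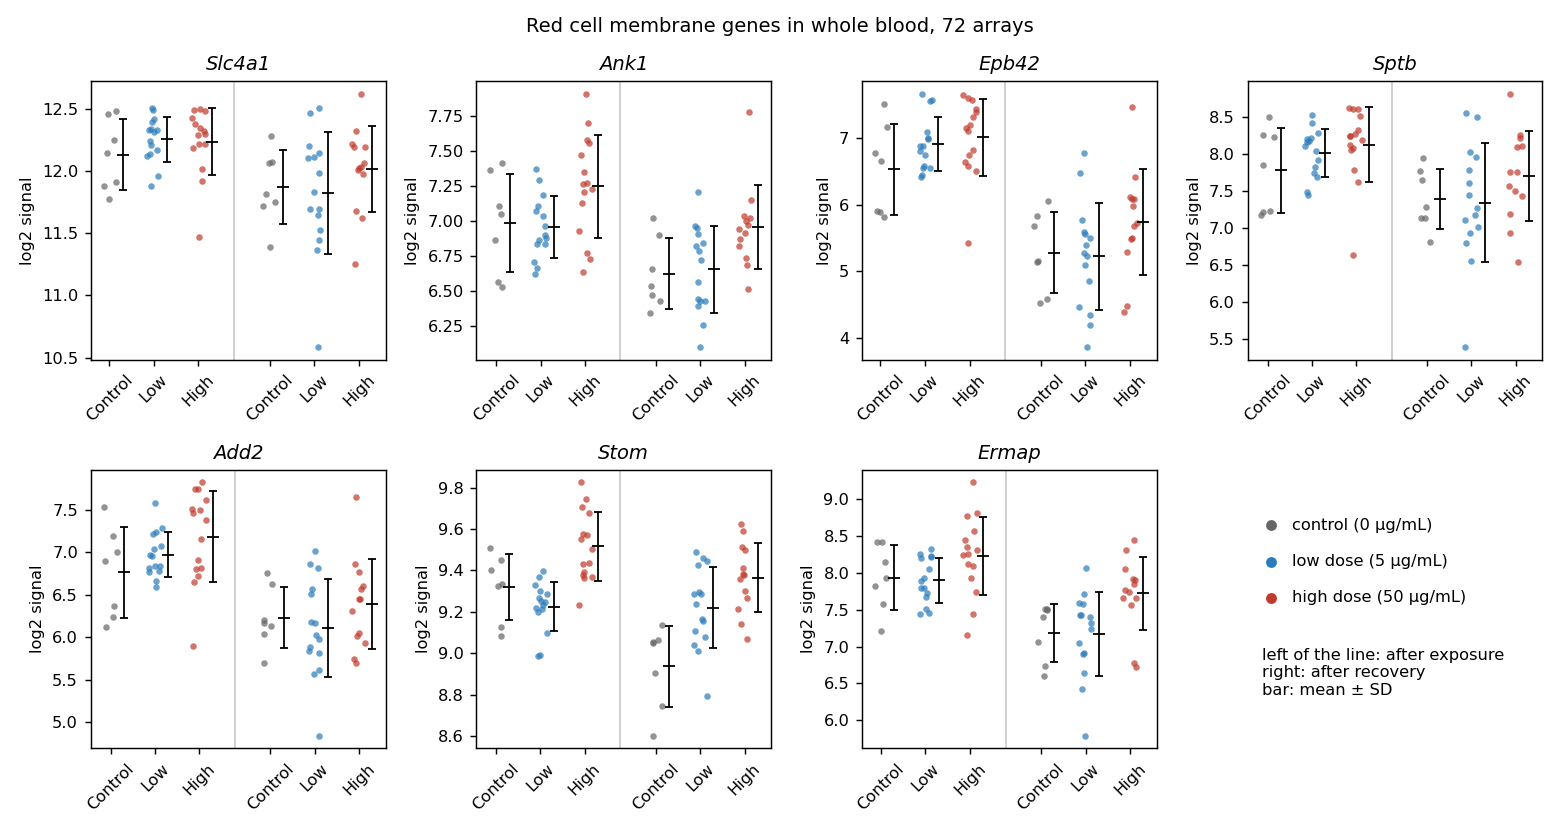
Log2 signal (y axis) of each of the 7 genes in every array, by dose, with arrays after exposure left of the grey line and after recovery right of it; bars give the mean ± SD of 7, 15, 15, 7, 15 and 13 arrays. For Epb42 the group medians after recovery are 5.16, 5.28 and 5.73, below the 6.66 or more after exposure, and for Stom the control mice after recovery have the lowest mean.

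Epb42, whose protein stabilises the contact of band 3 with ankyrin, fell the most at every dose in the probe sets used. In control mice its other probe set gave -0.71, a smaller fall than the -0.75 of Ermap and the -0.93 of another Stom probe set. The values that follow are of the Epb42 probe set used. In control mice its signal ran from 5.81 through a median of 6.66 to 7.51 after exposure and from 4.52 through 5.16 to 6.06 after recovery, so 5 of 7 recovery arrays lay below every exposure array. In low-dose mice it ran from 6.41 through 6.88 to 7.67 after exposure and from 3.87 through 5.28 to 6.78 after recovery, with 13 of 15 recovery arrays below every exposure array. In high-dose mice the groups overlapped more, from 5.43 through 7.15 to 7.65 and from 4.39 through 5.73 to 7.47, and 12 of 13 recovery arrays lay below the exposure median. The differences were -1.25 ± 0.33 (SE, 7 against 7 arrays) in control mice, -1.69 ± 0.23 (15 against 15) in low-dose mice and -1.27 ± 0.24 (13 against 15) in high-dose mice, or 2.37-fold, 3.22-fold and 2.40-fold lower. Their adjusted p-values were 0.00223, 1e-08 and 7.87e-06 (limma, Benjamini-Hochberg over all tested genes). The GATA letters of its promoter, printed above, lie near the far end of the window.

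Band 3 and ankyrin 1, the other partners of that anchoring complex, differed by less. Slc4a1 ran from 11.88 through a median of 12.32 to 12.51 in low-dose mice after exposure and from 10.59 through 11.83 to 12.51 after recovery. Of the 15 recovery arrays, 8 lay below every exposure array, and the fall of 0.43 ± 0.12 on the log2 scale passed the test (adjusted p = 0.00151). In control mice the difference was -0.26 ± 0.17 (adjusted p = 0.223) and in high-dose mice -0.22 ± 0.12 (adjusted p = 0.119), with overlapping arrays in both. Without high-dose exposure replicate 9, its lowest exposure array, Slc4a1 gave -0.28 and was called in high-dose mice (adjusted p = 0.0467). Ank1 ran from 6.62 through 6.90 to 7.37 and then from 6.10 through 6.72 to 7.20 in low-dose mice, a fall of 0.30 ± 0.11 (adjusted p = 0.0174). In high-dose mice Ank1 fell by 0.29 ± 0.11 (adjusted p = 0.0245), with 12 of 13 recovery arrays below the exposure median. That call was lost without exposure replicate 13 (-0.24, adjusted p = 0.0588) or recovery replicate 5 (-0.25, adjusted p = 0.0551). In control mice its difference was as large, -0.36 ± 0.16, but missed the threshold (adjusted p = 0.0609), although all 7 recovery arrays lay below the exposure median. It was called there without control exposure replicate 1 or 3 or recovery replicate 4 or 6, at -0.44 to -0.41 (adjusted p from 0.0255 to 0.0423).

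Among the skeleton proteins proper, Add2 fell in both exposed groups. Its signal ran from 6.59 through a median of 6.95 to 7.57 in low-dose mice after exposure and from 4.84 through 6.02 to 7.01 after recovery, and 12 of 15 recovery arrays lay below every exposure array. The fall was 0.86 ± 0.17 in low-dose mice (adjusted p = 2.14e-05) and 0.79 ± 0.17 in high-dose mice (adjusted p = 0.000124), while in control mice the difference was -0.53 ± 0.25 (adjusted p = 0.0805). Without control exposure replicate 1 or 3 or recovery replicate 6 the Add2 difference in control mice was -0.64 to -0.62 and was called (adjusted p from 0.037 to 0.0494). Sptb ran from 7.44 through 8.10 to 8.53 in low-dose mice after exposure and from 5.39 through 7.27 to 8.54 after recovery. For Sptb 9 of the 15 recovery arrays lay below every exposure array and 1 lay above every one. The Sptb fall of 0.67 ± 0.20 passed the test in low-dose mice (adjusted p = 0.00381). The Sptb differences of -0.39 ± 0.29 in control mice (adjusted p = 0.287) and -0.42 ± 0.20 in high-dose mice (adjusted p = 0.0790) did not. Without high-dose exposure replicate 9, the lowest exposure array for Sptb, the high-dose difference was -0.53 (adjusted p = 0.0224), and without high-dose recovery replicate 4, the highest recovery array, it was -0.51 (adjusted p = 0.0292).

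The surface protein Ermap fell at every dose. In control mice it ran from 7.22 through a median of 7.93 to 8.42 after exposure and from 6.60 through 7.40 to 7.51 after recovery, and all 7 recovery arrays lay below the exposure median. In low-dose mice it ran from 7.44 through 7.89 to 8.32 and then from 5.79 through 7.33 to 8.07, with 11 of 15 recovery arrays below every exposure array. The falls were 0.75 ± 0.24 in control mice (adjusted p = 0.0113), 0.73 ± 0.16 in low-dose mice (adjusted p = 0.000182) and 0.51 ± 0.17 in high-dose mice (adjusted p = 0.0103).

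For Stom the size of the difference depended on the probe set. In the one used, the control arrays ran from 9.08 through a median of 9.34 to 9.51 after exposure and from 8.60 through 9.05 to 9.13 after recovery, and 6 of 7 recovery arrays lay below every exposure array. That was a fall of 0.38 ± 0.090 (adjusted p = 0.000594). In low-dose mice the arrays ran from 8.99 through 9.25 to 9.40 and from 8.79 through 9.24 to 9.49, so the groups overlapped and the difference was -0.0071 ± 0.062 (95% interval -0.13 to 0.12, adjusted p = 0.934). In the same low-dose mice the Stom probe set of highest variance gave a called fall of 0.90 (adjusted p = 6.71e-10), and the mean of its passing probe sets a called fall of 0.39 (adjusted p = 1.94e-06). In high-dose mice the arrays ran from 9.23 through 9.51 to 9.82 and from 9.07 through 9.38 to 9.63, a fall of 0.15 ± 0.064 (adjusted p = 0.0429). The high-dose call was lost when any of 13 of the 28 arrays was left out, with differences of -0.15 to -0.13 and adjusted p up to 0.0945. The lead effect at recovery minus that at exposure was 0.38 ± 0.11 for Stom at the low dose (adjusted p = 0.102) and 0.23 ± 0.11 at the high dose (adjusted p = 1), so the change of Stom in exposed mice was not shown to differ from that in control mice.

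**Figure D2:**
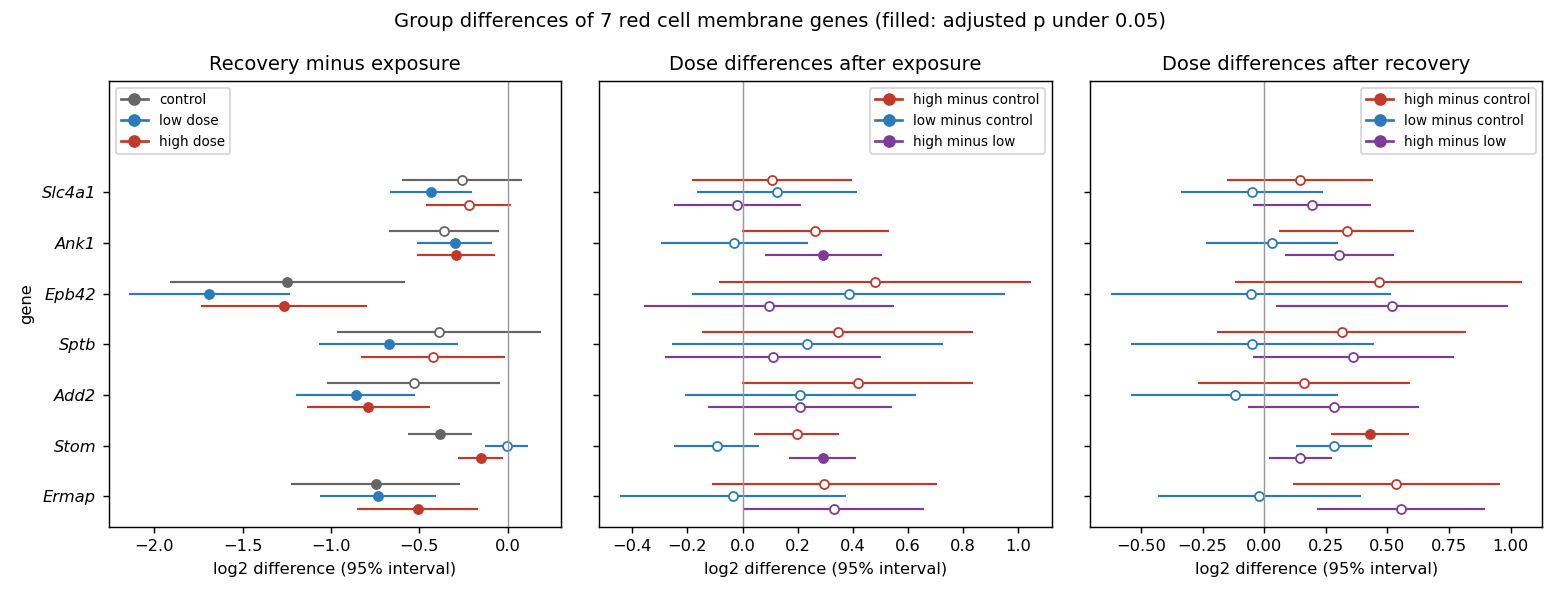
Log2 difference (x axis) with its 95% interval for each gene (y axis), recovery minus exposure by dose (left), and differences between doses after exposure (middle) and after recovery (right); filled points passed adjusted p under 0.05. Every point on the left lies below 0, from -1.69 for Epb42 to -0.0071 for Stom in low-dose mice, and 3 points between doses are filled.

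The lead effects at the 2 collections were then compared directly, as the effect at recovery minus that at exposure, and no member passed that test. At the high dose 0 of 7 members and 0.00794% of all genes (1 gene) were called in that interaction, and at the low dose 0 of 7 and 0.0238% (3 genes). At an unadjusted p under 0.05 the interaction held 1 member and 432 genes at the high dose, and 1 member and 1064 genes at the low dose. The intervals were wide for the genes that vary most: for Epb42 the high-dose interaction was -0.017 (95% interval -0.83 to 0.80).

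Several measures moved with the collection beside these falls. The 3′ minus 5′ log2 signal of the Actb and Gapdh array controls, a sign of RNA integrity and of amplification, ran from 0.30 to 0.62 in control mice after exposure and from 0.62 to 0.93 after recovery, with no overlap, and its means after exposure and after recovery were 0.46 and 0.79 in control, 0.49 and 0.80 in low-dose and 0.52 and 0.75 in high-dose mice. With it as a covariate, 3, 6 and 4 members were called in control, low-dose and high-dose mice. Epb42 stayed past the threshold at -1.07 (adjusted p = 0.0343), -1.53 (adjusted p = 0.00010) and -1.15 (adjusted p = 0.00061), while in control mice Stom became -0.23 and lost its call (adjusted p = 0.0750) and Ank1 became -0.49 and was called (adjusted p = 0.0388). B cell transcripts were higher after recovery for 18 of 18 markers in control, 16 of 18 in low-dose and 18 of 18 in high-dose mice. The mean of the B cell list, relative to each gene's average, ran from -1.45 to 0.50 in control mice after exposure and from 0.29 to 0.93 after recovery. Of 19 monocyte markers, 10 were higher and 1 lower after recovery in control, 5 and 1 in low-dose and 10 and 1 in high-dose mice. Of 23 platelet and megakaryocyte markers, 2 were higher and 12 lower in control mice (median -0.30), 8 and 3 in low-dose mice (median 0.0995) and 6 and 4 in high-dose mice. Of all genes, 36.1% were called in control, 44.1% in low-dose and 49.2% in high-dose mice (13.6%, 17.9% and 19.8% as lower). The monocyte calls in low-dose mice and the platelet calls in high-dose mice were no more frequent than that. As an effect at recovery minus that at exposure, all 23 platelet markers had a positive value at both doses (medians 0.53 at the low and 0.31 at the high dose) and 0 were called, beside 0.38 and 0.23 for Stom. With the B cell, T cell, neutrophil, monocyte and platelet marker means as covariates, which share each array's RNA with the members, Epb42 was -1.62 in control (adjusted p = 0.000802), -1.14 in low-dose (adjusted p = 2.18e-05) and -0.76 in high-dose mice (adjusted p = 0.0196). Under those covariates Add2 remained called in low-dose mice at -0.46 (adjusted p = 0.0256) and was also called in control mice at -0.74 (adjusted p = 0.0452). In control mice Stom (-0.20, adjusted p = 0.188) and Ermap (-0.72, adjusted p = 0.0504) lost their calls, which left 2 members called. Ermap was -0.30 (adjusted p = 0.147) in low-dose and -0.031 (adjusted p = 0.921) in high-dose mice, and Ank1 turned to 0.027 and 0.12, neither of which passed the test.

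Other erythroid, surface and globin genes, listed by function, were called lower more often than higher at each dose. Among all genes, 13.6% were called lower in control, 17.9% in low-dose and 19.8% in high-dose mice. Of 34 other erythroid and reticulocyte genes tested, 18 fell and 0 rose in control mice, 21 and 0 in low-dose mice, and 18 and 0 in high-dose mice. Among them, the erythroid transcription factor Gata1 fell by 0.59 ± 0.093 in control mice (adjusted p = 1.19e-06) and the transferrin receptor Tfrc by 1.48 ± 0.34 (adjusted p = 0.000404). Carbonic anhydrase 2 (Car2) fell by 1.14 ± 0.18 in low-dose mice (adjusted p = 2.95e-07). Of 24 other surface and blood group genes, 14 fell and 2 rose in control mice, 14 and 2 in low-dose mice, and 13 and 2 in high-dose mice. The water channel Aqp1 fell by 0.68 ± 0.14 in control mice (adjusted p = 8.3e-05), and Cd47, a marker of self on red cells, fell by 0.42 ± 0.072 (adjusted p = 4.88e-06). Of 5 globin genes tested, 2 fell in control, 3 in low-dose and 3 in high-dose mice, and 0 rose, in RNA from which globin transcripts had been depleted. These were Hbb-b2 (mean signal 9.545), Hbb-y (6.138), Hba-x (4.106), Hba-a2 (3.859) and Hbb-bh1 (3.842). The means of Hba-x, Hba-a2 and Hbb-bh1 lay below the filter level of 4.14, and Hba-a1 did not pass the filter. Rhd, of the Rh blood group, fell by 0.80 ± 0.14 in low-dose mice (adjusted p = 5.5e-06).

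The other membrane skeleton genes were called in both directions. Of 18 tested, 5 fell and 4 rose in control mice, 7 and 3 in low-dose mice, and 7 and 4 in high-dose mice. In the same comparisons 36.1%, 44.1% and 49.2% of all genes were called, 13.6%, 17.9% and 19.8% as lower. The rises of skeleton genes were thus no more frequent than rises among all genes. Rhag, the Rh-associated glycoprotein that joins the ankyrin complex, fell by 0.87 ± 0.21 in control mice (adjusted p = 0.000862). Rhag and Gypc stand in both the skeleton and the surface list, so they enter the counts of both. Mpp1, the p55 scaffold of the junctional complex, fell by 0.83 ± 0.15 in low-dose mice (adjusted p = 9.7e-06), and tropomodulin 1 (Tmod1), which caps the slow-growing end of actin, fell by 0.81 ± 0.16 (adjusted p = 1.56e-05). Sptan1, the alpha-spectrin of nucleated cells, rose by 0.65 ± 0.12 in control mice (adjusted p = 1.61e-05). Of 4 other stomatin-family and raft genes, 3 rose at each dose: Flot2 by 0.75 ± 0.13, Stoml1 by 0.74 ± 0.13 and Flot1 by 0.40 ± 0.10 in control mice (adjusted p = 7.93e-06, 6.77e-06 and 0.00187).

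The second comparison asks what lead did to these genes at the end of exposure. Against control mice, all 7 members had higher means at the high dose, from 0.11 for Slc4a1 to 0.48 for Epb42, but none passed the test (0 of 7, against 0.0238% of all genes). The median of the members was 0.30 and that of all genes -0.023, and 41.1% of all genes had higher means. For Epb42 the high-dose arrays ran from 5.43 through a median of 7.15 to 7.65, with 11 of 15 above the control median of 6.66, and the difference was 0.48 ± 0.29 (95% interval -0.087 to 1.05, adjusted p = 0.606). Add2 gave 0.42 ± 0.21 (unadjusted p = 0.0501, not called after adjustment), Sptb 0.35 ± 0.25 (adjusted p = 0.685), Ermap 0.30 ± 0.21 (adjusted p = 0.674) and Ank1 0.26 ± 0.13 (adjusted p = 0.531). For Stom, 14 of 15 high-dose arrays lay above the control median and 7 above every control array, a difference of 0.20 ± 0.077 (unadjusted p = 0.0128, adjusted p = 0.402). At an unadjusted p under 0.05 this comparison held 1 member, Stom, and 1193 genes.

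At the low dose the members gave 4 higher and 3 lower means than control mice after exposure, and 0 of 7 passed the test (1.3% of all genes did). Epb42 was 0.39 ± 0.29 (95% interval -0.18 to 0.95) and Stom -0.093 ± 0.077 (95% interval -0.25 to 0.061). At an unadjusted p under 0.05 there were 0 members and 1556 genes. The intervals of the more variable members include changes above 1.5-fold, so these arrays do not show that the low dose left them as they were.

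Set directly against each other after exposure, the high dose gave higher means than the low dose for 6 of 7 members and 41.8% of all genes. The test called 2 of 7 members, both higher (18.7% of all genes were called, 6.04% as higher). This comparison shares its high-dose and its low-dose arrays with those against control. Stom ran from 8.99 through a median of 9.25 to 9.40 at the low dose and from 9.23 through 9.51 to 9.82 at the high dose. In the high-dose group 10 of 15 exceeded the highest low-dose value, and the rise of 0.29 ± 0.062 is 1.22-fold (adjusted p = 0.000622). All 5 of its other probe sets that passed the filter were also higher, by 0.15 to 0.30, but with the one of highest variance Stom was 0.26 and lost its call (adjusted p = 0.0952). Ank1 ran from 6.62 through 6.90 to 7.37 at the low dose and from 6.64 through 7.26 to 7.91 at the high dose, a rise of 0.29 ± 0.11 (adjusted p = 0.0430), and 5 of its 15 high-dose arrays exceeded all low-dose ones. The Ank1 call was lost without any of 18 of the 30 arrays, down to 0.25 (adjusted p = 0.101) without high-dose exposure replicate 13, its highest array. With those 4 wide arrays left out Ank1 was 0.21 (adjusted p = 0.183), and Stom remained called at 0.28 (adjusted p = 0.00182). Slc4a1 (-0.019 ± 0.12), Epb42 (0.096 ± 0.23), Sptb (0.11 ± 0.20), Add2 (0.21 ± 0.17) and Ermap (0.33 ± 0.16, adjusted p = 0.140) did not pass.

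Beside the Stom and Ank1 differences, 17 of 23 platelet and megakaryocyte markers were higher and 17 of 18 B cell and 13 of 19 monocyte markers lower in the high-dose arrays. The mean 18S ribosomal RNA control signal was 7.79 ± 0.99 (SD, n = 15) at the high and 7.00 ± 0.86 (SD, n = 15) at the low dose. With that control as a covariate Stom was 0.29 (adjusted p = 0.00265) and Ank1 0.28 (adjusted p = 0.118). With the 5 cell marker means as covariates Stom was 0.13 (adjusted p = 0.405) and Ank1 0.19 (adjusted p = 0.349), so neither call was kept. In the same contrast 7 of the 34 other erythroid genes were called higher and 0 lower. Gata1 was higher by 0.41 ± 0.064 (adjusted p = 4.11e-06), Tal1, its partner in erythroid and megakaryocytic transcription, by 0.40 ± 0.083 (adjusted p = 0.000383), and the shared factors Gfi1b by 0.33 ± 0.075 (adjusted p = 0.0013) and Nfe2 by 0.29 ± 0.069 (adjusted p = 0.00222). Megakaryocytes and platelets also hold transcripts of these 4 factors. Of 24 other surface genes 6 were higher and 1 lower, among them Aqp1 (0.45 ± 0.095, adjusted p = 0.000654), and the complement regulator Cd55 was lower by 0.56 ± 0.10 (adjusted p = 4.74e-05). Of 18 other skeleton genes 1 was higher and 2 lower, where 18.7% of all genes were called (6.04% as higher).

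The third comparison asks whether differences between doses were present after 2 weeks without lead. High-dose mice had higher means than control mice for all 7 members, with a median of 0.33 against -0.026 over all genes. Higher means were found for 41.2% of all genes. Most members moved together from array to array, so 7 of 7 is not 7 separate results. The test called 1 of 7 (0.429% of all genes were called, 0.405% as higher). That member was Stom, which ran from 8.60 through a median of 9.05 to 9.13 in control mice and from 9.07 through 9.38 to 9.63 in high-dose mice. All but 1 of the 13 high-dose values exceeded the highest control value. The rise was 0.43 ± 0.079, or 1.35-fold (95% interval of the log2 difference 0.27 to 0.59, adjusted p = 0.00316). Leaving out control recovery replicate 3, the lowest Stom array of that group, gave 0.37 (adjusted p = 0.0791). The probe set of highest variance gave 0.33 (adjusted p = 0.381), and the mean of the passing probe sets 0.30 (adjusted p = 0.0956). Adding the cell marker means to the fit gave 0.29 (adjusted p = 0.220), and 6 of 23 platelet markers were higher at the high dose and 0 lower in this comparison.

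Ermap had the largest difference from control mice after recovery, 0.54 ± 0.21, where 11 of 13 high-dose values exceeded the highest control value, but its adjusted p was 0.315. Its control arrays ran from 6.60 through a median of 7.40 to 7.51 and its high-dose arrays from 6.72 through 7.77 to 8.45. Epb42 differed by 0.46 ± 0.29 (adjusted p = 0.560), Ank1 by 0.33 ± 0.14 (adjusted p = 0.333), Sptb by 0.31 ± 0.25 (adjusted p = 0.632), Add2 by 0.16 ± 0.22 (adjusted p = 0.768) and Slc4a1 by 0.14 ± 0.15 (adjusted p = 0.707). Among the other erythroid genes 33 of 34 had higher means in high-dose than in control mice and 2 passed the test, Gata1 (0.46 ± 0.082, adjusted p = 0.00316) and Nfe2 (0.36 ± 0.088, adjusted p = 0.0396). Of the 24 other surface genes, Aqp1 alone passed (0.50 ± 0.12, adjusted p = 0.0398), and of the 18 other skeleton genes 0 did.

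Low-dose mice after recovery gave differences from control mice between -0.12 ± 0.21 (Add2) and 0.031 ± 0.13 (Ank1) for 6 members, with 95% intervals as wide as -0.62 to 0.51 for Epb42 and -0.54 to 0.44 for Sptb, and 0 of 7 members and 0% of all genes passed by limma (295 genes and 1 member at an unadjusted p under 0.05). The member was Stom, whose low-dose arrays ran from 8.79 through a median of 9.24 to 9.49, 10 of 15 above every control array, with a difference of 0.28 ± 0.077 (unadjusted p = 0.000492, adjusted p = 1). Between high and low dose after recovery all 7 members had higher means at the high dose, from 0.15 ± 0.064 for Stom to 0.55 ± 0.17 for Ermap. Their median was 0.30, against -0.023 over all genes, of which 41% had higher means. By limma, 0 of 7 members and 0% of all genes passed. At an unadjusted p under 0.05 there were 1765 genes and 4 members, Ermap, Ank1, Stom and Epb42. Ermap ran from 5.79 through 7.33 to 8.07 at the low and from 6.72 through 7.77 to 8.45 at the high dose, with an adjusted p of 0.202. The 3 comparisons after recovery share arrays with each other, as do those after exposure.

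For 5 members, Slc4a1, Epb42, Sptb, Add2 and Ermap, the means of all 3 exposure groups lay above those of all 3 recovery groups, and for Ank1 and Stom they did not. For Epb42 the order was high-dose exposure (7.01 ± 0.58 SD), low-dose exposure (6.92 ± 0.41), control exposure (6.53 ± 0.68), high-dose recovery (5.75 ± 0.80), control recovery (5.28 ± 0.60) and low-dose recovery (5.23 ± 0.80). No neighbouring pair in that order differed by more than the larger SD of the pair. For Stom the order was high-dose exposure (9.52 ± 0.17), high-dose recovery (9.36 ± 0.17), control exposure (9.32 ± 0.16), low-dose exposure (9.23 ± 0.12), low-dose recovery (9.22 ± 0.20) and control recovery (8.94 ± 0.20). The step from low-dose to control recovery, the last in that order, was larger than the SD of either group. The only other neighbouring step of that kind among the 7 genes was from high-dose recovery (7.72 ± 0.50) to control recovery (7.19 ± 0.39) for Ermap.

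Within groups, 6 of the 7 genes rose and fell together from array to array. With group means removed, Pearson's r over the 72 arrays was 0.965 between Slc4a1 and Sptb, 0.909 between Epb42 and Sptb and 0.907 between Epb42 and Add2. Ank1 and Ermap were most like each other (0.857). Stom stood apart, with r between 0.41 (with Slc4a1) and 0.570 (with Ank1). Each pair of values comes from the same array and shares its RNA, amplification and normalization, so these figures describe the arrays.

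**Figure D3:**
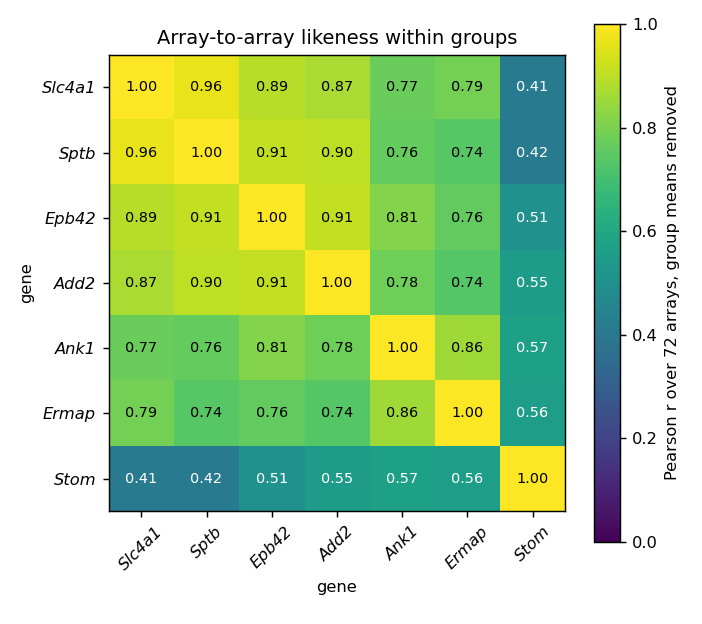
Pearson correlation over 72 arrays, with group means removed, between each pair of the 7 genes (both axes); colour and number give r. The block of Slc4a1, Sptb, Epb42 and Add2 holds values of 0.87 or more, and the row of Stom holds the lowest, from 0.41 to 0.57.

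The spread of the genes among arrays of a group differed by gene. The pooled SD within groups was 0.66 for Epb42, 0.57 for Sptb, 0.49 for Add2, 0.47 for Ermap, 0.33 for Slc4a1, 0.30 for Ank1 and 0.17 for Stom. From the lowest to the highest of the 72 arrays Epb42 spanned 14-fold and Stom 2.33-fold. A few arrays set the extremes for most members at once: low-dose recovery replicate 4 was the lowest of its group for 6 members and high-dose exposure replicate 9 for 5. High-dose recovery replicate 4 was the highest of its group for 6 members, and low-dose recovery replicate 14 for 5.

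Among all other tested genes, those whose array-to-array pattern was most like a member's were named by the highest r within groups over the 72 arrays. Slc4a1 was followed most closely by Ranbp10 (0.968), Glrx5 (0.963) and Tmcc2 (0.959), and Sptb by Ranbp10 (0.967), Ctsb (0.965) and Mpp1 (0.961). Epb42 was followed by Mpp1 (0.967), Car2 (0.965) and Atg4a (0.961), and Add2 by Ilrun, Ifrd2 and Fbxo9 (each 0.936). Ank1 was followed by 1300017J02Rik (0.912), Rhd (0.898) and Slc6a9 (0.894), and Ermap by Icam4 (0.956), 1300017J02Rik (0.936) and Cldn13 (0.924). Stom was followed by Aqp1 (0.793), Pcyt1b (0.766) and Map2k3 (0.742). An r above 0.8 was reached by 241 genes for Epb42, 247 for Add2, 208 for Sptb, 172 for Slc4a1, 93 for Ank1, 45 for Ermap and 0 for Stom. For the mean of the standardised members the closest were Kel (0.963), which carries the Kell antigens, the complement regulator Cd59a (0.962), St3gal5 (0.952), Rhd (0.951) and Prnp (0.949), followed by Fbxo9, 1300017J02Rik, Mpp1, Fam210b and Ifrd2 (0.945 to 0.947).

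The members' mean followed the mean of the other erythroid genes with r = 0.976 within groups, that of the other surface genes with 0.894 and that of the other skeleton genes with 0.728 over the 72 arrays. It followed the mean of the 5 globin genes tested, several of them near the filter level in globin-depleted RNA, with 0.481. With the T cell, B cell, platelet, neutrophil, NK cell and monocyte lists r was negative, from -0.483 for T cells to -0.215 for monocytes, with B cells at -0.34 and platelets at -0.307. Stom alone was positive with platelets (0.404). With the 18S, hybridisation and 3′ minus 5′ array controls the members' mean had r of -0.108, 0.0809 and -0.0111.

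Other probe sets of the same genes differed in size. For Stom, recovery minus exposure in low-dose mice was -0.0071 in the probe set used and -0.18, -0.46, -0.90, -0.68 and -0.13 in the 5 others that passed, so all 6 were below 0 while their sizes differed widely. The same 5 probe sets gave 0.067 to 0.39 between high-dose and control mice after recovery, all above 0 like the 0.43 of the one used. For Sptb, the other passing probe set gave -0.0038 in low-dose mice after recovery, against -0.67 in the one used, and -0.00033 in control mice against -0.39. Within groups it followed the one used with r = 0.154 only, so the size of the Sptb fall rests on the probe set used. For Add2 the 4 other passing probe sets gave -0.15 to -0.37 in low-dose mice, against -0.86. The other Epb42 probe set gave -0.71 in control mice, against -1.25 in the one used. It gave -1.21 in low-dose and -0.79 in high-dose mice, and the other passing Ank1 probe set -0.46 and -0.31. For Slc4a1 the other passing probe set gave -0.13 in control, -0.25 in low-dose and -0.084 in high-dose mice, against -0.26, -0.43 and -0.22. Ermap had 1 probe set.

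**Figure D4:**
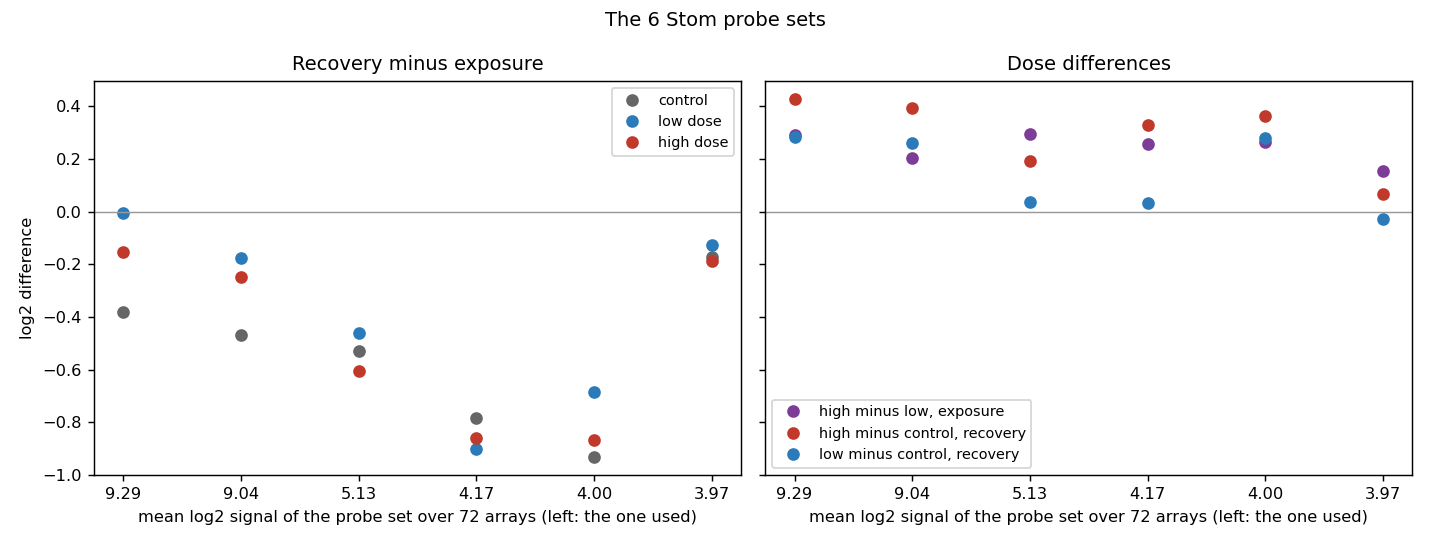
Log2 difference (y axis) in each of the 6 Stom probe sets, ordered by their mean log2 signal over 72 arrays (x axis), for recovery minus exposure by dose (left) and for 3 differences between doses (right). All points on the left lie below 0, from -0.0071 to -0.93, and on the right 1 of 18 points lies below 0.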

How the data were processed

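The deposited table holds 1 log2 value for each of 45101 probe sets in 72 arrays, from 0.41 to 14.14. Per the submitters' processing notes the authors made these log2 values with RMA, which corrects background, normalizes quantiles and summarises probes; its program and version were not given in the sources used here. Blood was kept in RNAProtect tubes, globin RNA was removed, and RNA was amplified with biotin labelling, per the labels' protocols. The values carry no counts or depth, so the number of arrays limits the precision.

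The 34958 probe sets with exactly 1 symbol in the platform annotation were kept where they exceeded 4.14, the median of all values, in at least 7 arrays (21054 probe sets), and each gene was given its probe set of highest mean (12589 genes). Group means of the 6 groups were fitted over all 72 arrays with limma 3.58.1 in R 4.3.3 (lmFit, eBayes, 66 residual degrees of freedom), and two-sided p-values were adjusted by Benjamini-Hochberg over all tested genes, with a threshold of 0.05. Dose effects at the 2 collections were compared by interaction terms. The script was tested on simulated data. Every member is named in every comparison; of each other list, genes named are among the 4 with the smallest p in that comparison. Likeness is named by the 3 highest correlations per member and the 10 highest for their mean. The members and lists were chosen with earlier results of these data known. Alternatives covered probe set choice, filters, scaling, array weights, the variance model, the groups fitted, a replicate block, array control and cell marker covariates, and each array left out; leaving out the 4 arrays whose interquartile range of relative log expression exceeded 0.403 was chosen after seeing the data. Promoters come from RefSeq (GRCm38.p6) and were matched by symbol.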

Additional observations from a re-analysis of the deposited data

How the results depend on the processing

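Counts of members called were 0 under every setting run for both doses against control after exposure, for the low dose against control after recovery and the comparison of the 2 doses then, and for the high-dose effect between collections. The 2 called between high and low dose after exposure became 0 with the probe set of highest variance and with cell marker covariates, and 1 with the mean of all passing probe sets, no filter, array-median centring, the 18S, 3′ to 5′ or hybridisation covariate, or without the 4 wide arrays, and 3 with array weights (Ermap 0.40, adjusted p = 0.0392). The 1 called between high dose and control after recovery became 0 with the probe set of highest variance, the mean of passing probe sets and cell marker covariates. For recovery against exposure, the 3 in control mice became 5 under quantile normalization and array weights and 6 with the replicate block. The control count was 4 with the mean of passing probe sets, cyclic loess, only the groups compared or the 18S covariate. It was also 4 without the 4 wide arrays, and it was 2 with cell marker covariates. The 6 in low-dose mice became 2 with cell marker covariates and 7 with either other probe set choice, where Stom was called. The 5 in high-dose mice became 6 under quantile normalization and cyclic loess and 7 with array weights. The high-dose count was 4 with no filter, array-median centring, only the groups compared, or the 18S or 3′ to 5′ covariate. It was also 4 without the 4 wide arrays. With the replicate block or hybridisation covariate it was 3, and with cell marker covariates 1. The low-dose effect between collections went from 0 to 1 with array weights (Stom 0.48, adjusted p = 0.00247). Ank1 reversed under cell marker covariates, to 0.027 in low-dose and 0.12 in high-dose mice. The causes were not tested. With 1 array left out, counts ran from 1 to 2 between high and low dose after exposure, 0 to 1 between high dose and control after recovery, 3 to 5 in control, 6 to 6 in low-dose and 3 to 7 in high-dose mice, and 0 to 0 in the others. The control count was 5 without exposure replicates 1 or 3 or recovery replicate 6, and the high-dose count was 3 without recovery replicate 5 and 7 without exposure replicate 9. Across the other settings, 54 of 1232 single-gene values had the opposite sign to the reported one, and of these only the 2 Ank1 values above reversed a called one.

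Arrays of different groups share title numbers, and the check did not show that these pair them: deviations of same-numbered arrays correlated above 0.1 in 3 of 7 control, 7 of 15 low-dose and 4 of 13 high-dose pairs, and 0, 3 and 1 exposure arrays correlated best with their own number. With the replicate block, Stom between high dose and control after recovery was 0.42 (adjusted p = 0.0980) and Ermap 0.62 (adjusted p = 0.033), so the count of 1 held another gene.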
